A study of Homo sapiens with 5 samples.

Results

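Nectins are immunoglobulin-type adhesion molecules that hold neighbouring cells together, and the 8 genes described here encode the nectins (NECTIN1, NECTIN2, NECTIN3 and NECTIN4), the related nectin-like molecules PVR, CADM1 and CADM4, and the adaptor afadin (AFDN). All probesets annotated to these genes under their current or older symbols (PVRL1 to PVRL4 for the nectins, MLLT4 for AFDN) were taken, which gave 36 probesets for 8 of the 19775 genes named on the array. The mRNA was measured in HEK293, an established human cell line of embryonic kidney origin. The control cells carried the pcDNA4 plasmid without insert (HEK293-vector, n = 3 arrays) and the others stably overexpressed PRL-1 (HEK293-PRL-1, n = 2 arrays), with both grown in the same serum-containing medium. PRL-1 is a protein tyrosine phosphatase and the product of PTP4A1. The groups are separate cultures of 1 stable line each, so an effect of PRL-1 and a difference that arose when the lines were made cannot be told apart. The authors removed a further HEK293-PRL-1 array after qRT-PCR showed no raised PRL-1 in that sample.

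The extracellular domains of nectins bind each other across the gap between cells. NECTIN3 pairs with NECTIN1, NECTIN2 and PVR on the opposing cell, pairings that are in general tighter than those of a nectin with itself. Inside the cell, the tail of each nectin binds the PDZ domain of afadin, which links it to actin filaments and to the cadherins of the adherens junction. PVR does not bind afadin and is known as the poliovirus receptor and as a ligand of lymphocyte receptors. CADM1 and CADM4 belong to the same superfamily and connect instead to proteins of the EPB41 family and membrane-associated guanylate kinases.

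The family was selected on the signals of these same arrays, namely the lower signal of NECTIN3 in HEK293-PRL-1. The differences between groups are therefore given for the 8 genes as a description, with their errors and without p-values. MAS5 signals are scaled intensities on a linear scale that differ in sensitivity from probeset to probeset, so each probeset was compared only with itself. A probeset was tested when its signal reached 100 on at least 2 of the 5 arrays, since signals under 100 were treated as not above background. Of the 36 probesets, 23 passed and 13 did not. PTP4A1 itself was not called in any of its 4 tested probesets, with log2 differences of 0.06 to 0.15 (limma adjusted p from 0.737 to 0.892) and no 95% interval reaching above 0.44. The construct's transcript was not given in the sources used here, so whether these probesets read it was not tested. The study reports that PRL-1 mRNA and protein were found in earlier work to be higher in this line than in the vector cells. The group names below follow the labels. Of the 6 marker genes of HEK293 cells, 5 reached 100 on every array, and NEFM lay below 100 on all of them. Of these markers KRT8 and KRT18 were higher in the PRL-1 arrays without overlap and VIM and PAX2 lower, none of them called, and their part in the results was not tested. The array of vector replicate 3 stood apart, with correlations of 0.938 to 0.947 to the others.

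The sequence just upstream of the annotated start is shown for NECTIN3, the gene with the largest difference, and for NECTIN2, the nectin with the highest positive difference, so that the promoter regions of both can be set beside their signals. Both come from RefSeq (GRCh38.p14, plus strand, 250 bases, 5′ to 3′) and hold chr3:111071566-111071815 for NECTIN3 and chr19:44846047-44846296 for NECTIN2. Capitals mark the GC box GGGCGG or its reverse complement.
NECTIN3: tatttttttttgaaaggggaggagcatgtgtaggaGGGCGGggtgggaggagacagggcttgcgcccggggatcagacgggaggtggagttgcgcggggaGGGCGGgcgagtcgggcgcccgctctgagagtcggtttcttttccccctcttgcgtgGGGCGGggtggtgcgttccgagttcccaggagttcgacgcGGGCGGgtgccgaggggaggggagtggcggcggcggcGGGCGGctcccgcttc
NECTIN2: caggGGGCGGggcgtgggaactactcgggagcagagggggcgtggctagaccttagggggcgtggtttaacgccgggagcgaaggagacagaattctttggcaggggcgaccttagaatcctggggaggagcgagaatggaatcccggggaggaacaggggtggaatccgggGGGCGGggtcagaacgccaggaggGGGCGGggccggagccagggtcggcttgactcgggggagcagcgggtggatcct
The window of NECTIN3 held 5 GC boxes and that of NECTIN2 held 3, on either strand, and 42.6% of 35116 windows of this length held at least 1. Both windows were GC-rich (69.2% and 67.6%, against a median of 58%), and neither held the E-box CAGGTG, which 17.5% of windows did. The table held windows for 6 of the 8 genes. NECTIN1 and CADM1 were not among them. The windows of NECTIN4, PVR, AFDN and CADM4 each held the E-box. Their GC boxes ranged from 0 (PVR) to 7 (CADM4), and their GC content from 65.2% (NECTIN4) to 84.8% (AFDN).

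NECTIN3 was lower in HEK293-PRL-1 through both of its probesets. The probeset 213325_at gave signals of 390.1, 384.9 and 332.4 on vector replicates 1, 2 and 3 and of 57.2 and 64.1 on PRL-1 replicates 1 and 2. The probeset 227503_at gave 321.6, 330.4 and 281.3 on the vector arrays and 22.5 and 10.4 on the PRL-1 arrays. All vector signals stood well over 100 and all PRL-1 signals under it, with a wide gap between the groups. Because the PRL-1 signals lay below 100, only a bound can be given for the fold, with the PRL-1 group set to 100. NECTIN3 was at least 3.68-fold lower by 213325_at and at least 3.1-fold lower by 227503_at. The measured log2 differences were -2.60 (SE 0.25) and -4.34 (SE 0.50), and they differ from each other over a range of signals in which size is not resolved.

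Across all 23 tested probesets of the family, 2 were called lower by limma at an adjusted p of 0.05 and 0 higher, and both were those of NECTIN3. Over all 33818 tested probesets 0.192% were called, 0.133% lower and 0.0591% higher. As NECTIN3 was the reason for the choice, nothing is read from this count. Both NECTIN3 probesets also passed the filter through the vector arrays alone. The count was 0 by the test named in the study's methods and 0 without vector replicate 2. It was 1 without the intensity trend and with the filter at 200 (213325_at in both), 1 without vector replicate 1 (213325_at) and 1 without either PRL-1 array (227503_at). Over the fits without 1 array the log2 differences ranged from -2.69 to -2.52 and from -4.89 to -3.79.

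**Figure D1:**
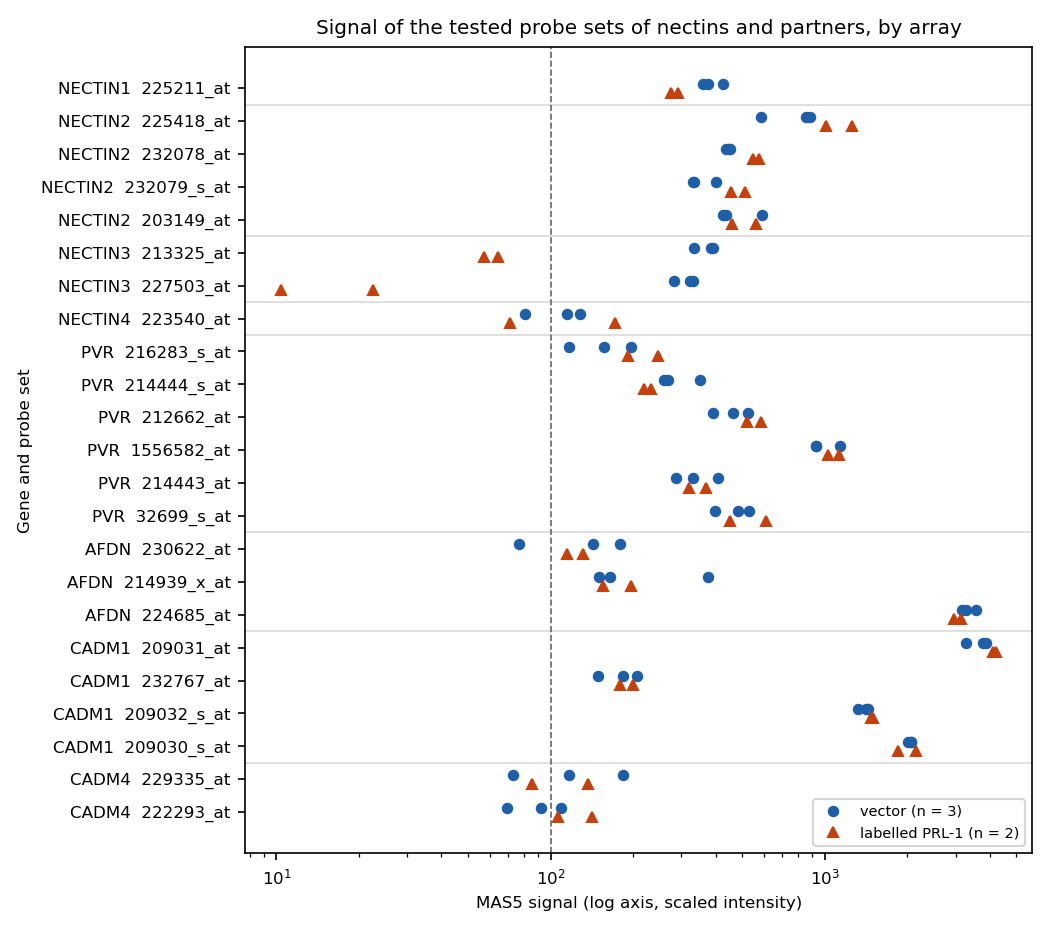
MAS5 signal (log axis) of the 23 tested probesets by array, with circles for vector (n = 3), triangles for PRL-1 as labelled (n = 2) and a dashed line at 100. Both NECTIN3 probesets separate across the dashed line, the PRL-1 arrays lying between 10.4 and 64.1 and the vector arrays between 281.3 and 390.1.

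The size of the NECTIN3 difference moved with the treatment of low signals. With an offset of 32 added before the logarithm the log2 differences were -2.11 and -2.83, and after quantile normalization with that offset they were -2.01 and -2.73. In the plot of NECTIN3 under each processing the probesets come closest to each other in these settings.

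**Figure D2:**
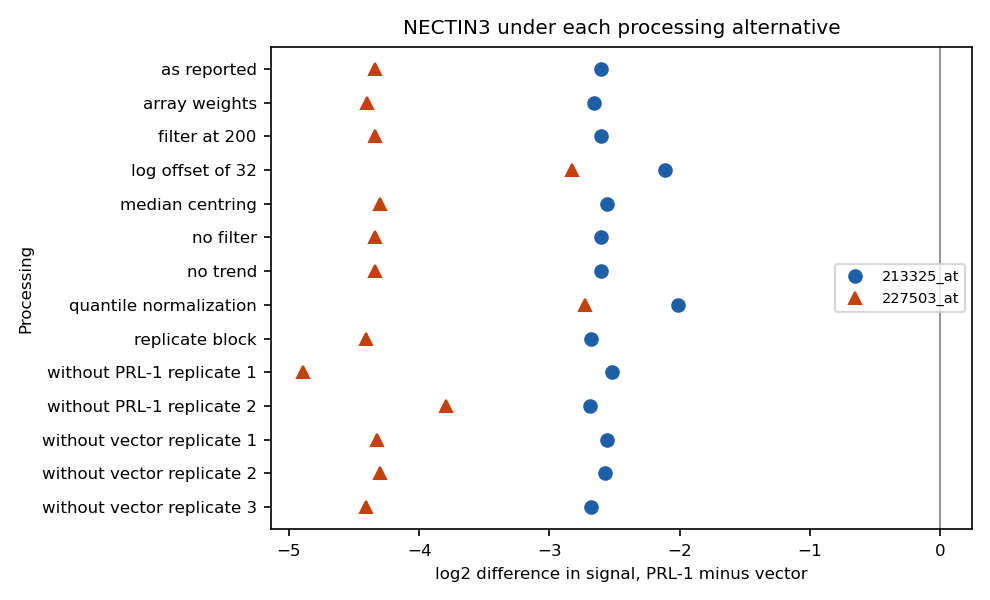
log2 difference in NECTIN3 signal, PRL-1 minus vector, for the probesets 213325_at (circles) and 227503_at (triangles) as reported and under each alternative. Every value lies below 0, and both probesets lie nearest to 0 after quantile normalization, at -2.01 and -2.73.

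No other member of the family differed by as much. NECTIN1, which is also an entry receptor of herpes simplex virus, was measured by 225211_at. Its signals were 375.5, 358.5 and 424.1 in vector cells and 290.7 and 273.8 in PRL-1 cells. The groups did not overlap, PRL-1 cells being lower, and the log2 difference was -0.45 (SE 0.18), within -0.50 to -0.38 when each array was left out. The other 3 probesets of NECTIN1 stayed between 5.6 and 99 on all arrays.

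NECTIN2, a ligand of the lymphocyte receptors CD226, TIGIT and PVRIG, had 3 of its 4 probesets higher on the PRL-1 arrays without overlap between groups, where 12.8% of all tested probesets were, and none of them was called. By 225418_at the vector arrays gave 882.2, 583.4 and 857.3 and the PRL-1 arrays 1252.4 and 1010, a log2 difference of 0.56 (SE 0.20). By 232078_at the signals were 446.5, 449.5 and 436.3 against 548.1 and 575.7 (log2 difference 0.34, SE 0.14). By 232079_s_at they were 401.3, 334.5 and 330 against 510.1 and 455.3 (0.45, SE 0.17). In each of these the lowest PRL-1 array lay above the highest vector array, and vector replicate 2 was the lowest array of 225418_at. The remaining probeset, 203149_at, overlapped, with 423.9, 437.6 and 588.4 against 458 and 563, and its log2 difference of 0.09 (SE 0.19) ranged from -0.06 to 0.24 with each array left out.

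NECTIN4, a nectin that serves as the epithelial receptor of measles virus, was close to background. Its probeset 223540_at gave 80.8, 128.2 and 114.9 in vector cells and 71.4 and 171.5 in PRL-1 cells. The groups overlapped and the PRL-1 arrays lay at the opposite ends of the range, so that the log2 difference of 0.06 (SE 0.49) became -0.57 when the higher of these arrays was left out and 0.69 when the lower was.

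**Figure D3:**
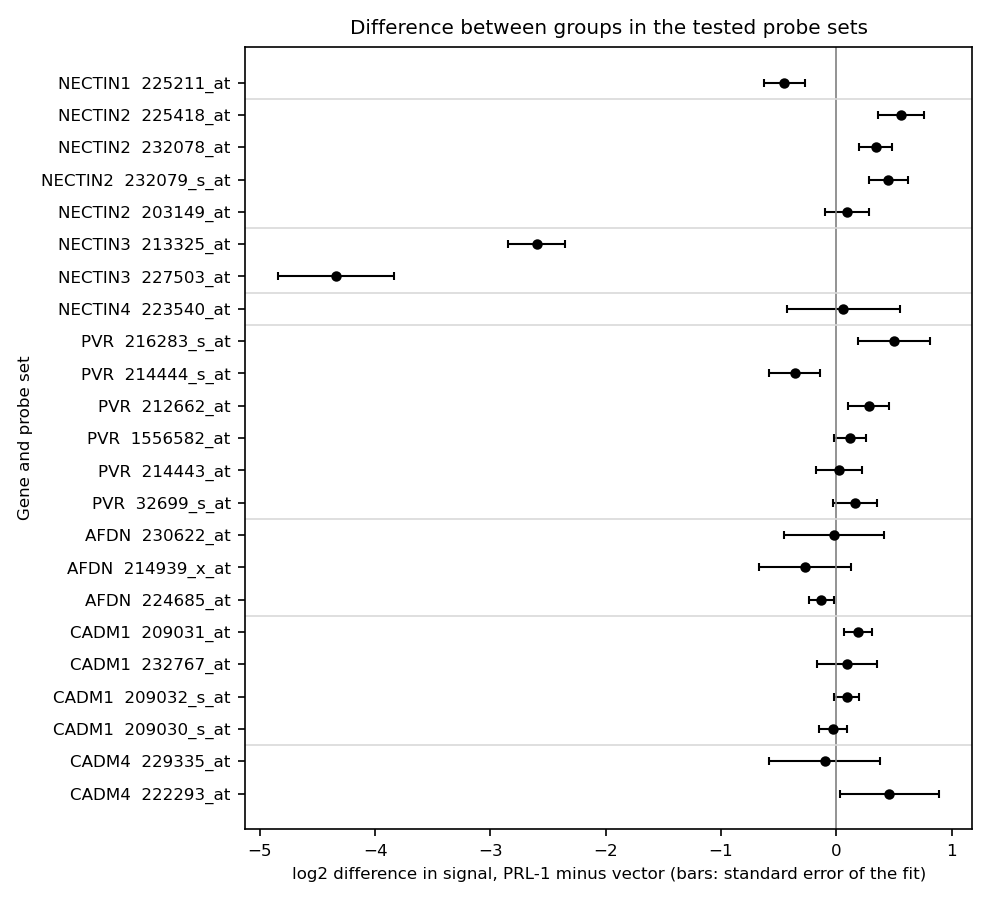
log2 difference in signal, PRL-1 minus vector, for each tested probeset (dots), with the standard error of the limma fit (bars, 3 vector and 2 PRL-1 arrays). NECTIN3 lies at -2.60 and -4.34, values that rest on PRL-1 signals under 100, and the other 21 probesets lie between -0.45 and 0.56.

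PVR, the nectin-like partner of NECTIN3 on opposing cells, did not give a single direction. Of its 6 tested probesets, 5 had log2 differences above 0 and 1 below. The highest was 216283_s_at (0.50, SE 0.31), whose signals of 117.1, 156.6 and 196.8 in vector cells overlapped those of 191.5 and 246.5 in PRL-1 cells. The lowest was 214444_s_at, with 350.6, 260.2 and 267.6 against 232.1 and 219.6 (-0.36, SE 0.22), the single PVR probeset without overlap. The brightest, 1556582_at, gave 926, 925 and 1137.8 against 1025.9 and 1130.4, a log2 difference of 0.12 (SE 0.14) with a 95% interval of -0.21 to 0.44. For the other 3 the log2 difference lay between 0.02 and 0.28 and the groups overlapped. The seventh probeset of PVR was below 100 on all arrays.

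Afadin, the common adaptor of the nectins, was read by 224685_at with signals far over 100 on every array. It gave 3280.4, 3168 and 3560.2 in vector cells and 3146.1 and 2963.3 in PRL-1 cells. The PRL-1 arrays were the lowest of the 5, by a narrow margin over vector replicate 2, and the log2 difference was -0.13 (SE 0.11) with a 95% interval of -0.38 to 0.12. A fall as large as the bound of NECTIN3 lies outside that interval. The probesets 230622_at and 214939_x_at gave signals of 76.4 to 375.6 with overlapping groups, and for the latter vector replicate 2 at 375.6 stood over the remaining 150.6 to 196.5. The log2 difference of 230622_at was -0.02 and turned to 0.08 after quantile normalization and 0.02 after median centring. The other 4 AFDN probesets did not pass the filter, with 105 as their highest signal.

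CADM1, an adhesion molecule of epithelia and synapses, gave bright and stable signals. By 209031_at the vector arrays gave 3865.6, 3786.2 and 3285.4 and the PRL-1 arrays 4218.9 and 4103.9. The PRL-1 arrays were both above all vector arrays, at a log2 difference of 0.19 (SE 0.12). The probeset 209032_s_at also did not overlap, with 1325.5, 1416 and 1442 against 1475.5 and 1498.4 (0.09, SE 0.11). The probeset 209030_s_at overlapped, with 2012.8, 2060.4 and 2066.1 against 2157 and 1854.8 (-0.03, SE 0.12, or 0.01 after median centring). The 95% intervals of these 3 reached from -0.30 at the lowest to 0.46 at the highest, and the dimmer 232767_at gave 0.09 (SE 0.26). CADM4, a molecule of the same family found on Schwann cells and epithelia, was near background. Its tested probesets 229335_at and 222293_at gave 69.6 to 183.5 in vector cells and 85.3 to 141.2 in PRL-1 cells, with overlap in both, and 3 of its 5 probesets did not pass the filter.

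Counted over the family, 5 of 23 tested probesets were higher in HEK293-PRL-1 without overlap between groups and 5 were lower, where 12.8% and 16.1% of all tested probesets were (28.9% together). The higher ones belonged to NECTIN2 (3) and CADM1 (2), and the lower ones to NECTIN3 (2), NECTIN1, PVR and AFDN (1 each). The median log2 difference over the 23 was 0.09, against -0.04 over all tested probesets. The lower count and the median include the 2 NECTIN3 probesets, on which the family was selected. Apart from NECTIN3, probesets without overlap were still found in both directions, and none of them was called. The 13 probesets that did not pass the filter had signals of 2.4 to 123.3, so none of them gave a usable comparison.

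The genes beside NECTIN3 on its chromosome were compared next, as those nearest to it with a tested probeset, 5 on each side. For each gene the brightest tested probeset was used. None of these 10 genes was called by limma, where 0.247% of 14546 genes were (0.0825% higher and 0.165% lower), and 5 had an unadjusted p under 0.05, where 11.4% of all genes did. Of the 10, 6 were higher in HEK293-PRL-1 without overlap, where 13.8% of all genes were, and 1 was lower, where 17.2% were (30.9% together). C3orf52, an endoplasmic reticulum membrane protein, came nearest to a call (limma adjusted p = 0.0871). Its signals were 510.3, 540.6 and 465.8 in vector cells and 894.9 and 920.2 in PRL-1 cells, a log2 difference of 0.85 (SE 0.14). C3orf52 passed the threshold without vector replicate 3, with array weights and with the replicate block. All of these settings remove that array or lessen its part, so they are not separate checks. They called 313, 275 and 448 probesets over the whole array, against 65 as reported. CIP2A, an inhibitor of the phosphatase PP2A, gave 712.4, 723.8 and 558.2 against 962.6 and 1096.8 (0.64, SE 0.16, adjusted p = 0.27).

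IFT57, a subunit of the machinery that transports cargo in cilia, gave 0.48 (SE 0.16, limma adjusted p = 0.404). PHLDB2, a membrane-associated protein of the cell cortex, gave 0.35, DZIP3, a ubiquitin ligase, 0.28 and ABHD10, a mitochondrial hydrolase, 0.26, with adjusted p from 0.489 to 0.553. PLCXD2, the nearest measured gene on one side of NECTIN3, overlapped between groups with 485.1, 340.8 and 344.9 against 481.4 and 422.9. GUCA1C, the nearest measured gene on the other side, was close to background, with 103 to 163.3 in vector cells and 76.8 to 81.4 in PRL-1 cells. RETNLB and TAGLN3 were lower at dim signals with overlap. Of the 10 genes 7 lay above 0, where 44.8% of all genes did, and 7 did so whichever array was left out. Their median was 0.27, against -0.03 over all genes. NECTIN3-AS1, an antisense transcript next to NECTIN3, gave 3.8 to 21.3 on all arrays and is not above background. Of the 3 neighbours below 0, all were dim, with signals of 76.8 to 299.2.

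**Figure D4:**
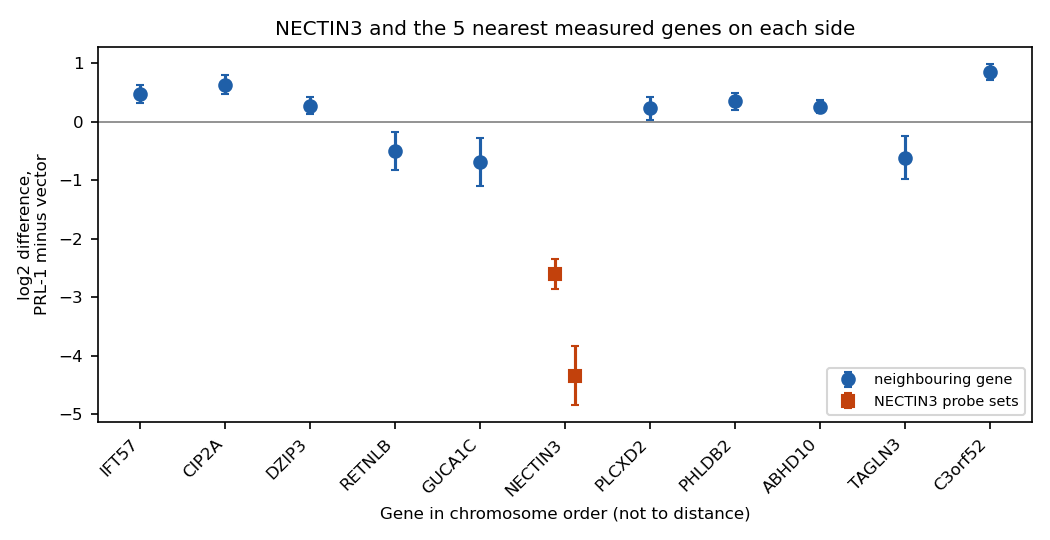
log2 difference in signal, PRL-1 minus vector, for the 2 NECTIN3 probesets (squares) and the 5 nearest measured genes on each side (circles, brightest probeset each), in chromosome order and not to distance, with the standard error of the fit as bars. NECTIN3 lies at -2.60 and -4.34, while the neighbours lie between -0.69 and 0.85.

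Other genes of nectin and CADM adhesion were examined as 5 lists with 61 genes in all, of which 47 had a tested probeset. None rose and none fell by limma at an adjusted p of 0.05. At an unadjusted p under 0.05 limma had 6 of the 47, where 11.4% of all genes passed. The test named in the study's methods had 7, where 8.59% of all tested probesets passed. The median over the 47 was 0.08, against -0.03 over all genes. Of the 47, 33 lay above 0 and 14 below, where 44.8% of all genes lay above 0. In 8 genes the PRL-1 arrays were higher without overlap and in 6 lower, against 13.8% and 17.2% of all genes.

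Of the adherens junction core, which nectins and afadin join to actin, 5 of 8 genes were measured. CDH1, the epithelial cadherin, gave 158.2, 188.2 and 186.4 in vector cells and 403.1 and 431.5 in PRL-1 cells. Both PRL-1 arrays lay far above every vector array, and the log2 difference was 1.24 (SE 0.21, limma adjusted p = 0.0871). CDH1 passed the threshold without vector replicate 3, with array weights, after median centring and with the replicate block. Apart from median centring, these settings remove that array or lessen its part, so they are not separate checks. They called 313, 275 and 448 probesets over the whole array, against 65 as reported and 62 after median centring. CDH2, the neural cadherin, gave 2517 ± 367 (SD, n = 3) and 2511 ± 210 (SD, n = 2), a log2 difference of 0 with a 95% interval of -0.32 to 0.33. JUP (plakoglobin) gave 0.31 (limma adjusted p = 0.706), and the catenins CTNNA1 and CTNNB1 gave 0.08 and 0.06.

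Of afadin's partners and nectin signalling, 25 of 29 genes were measured, with a median of 0.07. In 5 of these genes the PRL-1 arrays were higher without overlap and in 4 lower, near the shares over all genes (13.8% and 17.2%). TIAM1, an exchange factor that activates Rac, gave 1329.6, 1284.5 and 1247.5 in vector cells and 1738.7 and 1967.3 in PRL-1 cells (log2 difference 0.52, SE 0.12, limma adjusted p = 0.223). Its groups did not overlap. PARD3, a polarity protein that binds the tails of NECTIN1 and NECTIN3, gave 1000.4, 923.5 and 1369.7 against 748.2 and 728.1 by its brightest probeset (-0.55, SE 0.18, limma adjusted p = 0.379). The PRL-1 arrays were below all vector arrays in that probeset and in 210094_s_at (-0.63), while its remaining probesets gave 0.34 and -0.13 with overlap. SRC, the kinase activated at nectin contacts, gave 0.53 by its brightest probeset and 1.51 by 213324_at (limma adjusted p = 0.202), where the signals were 101.6, 154.6 and 164.3 against 296.4 and 511.6. A further tested probeset of SRC, 221284_s_at, is not shown and was not called either.

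All 10 intracellular partners of CADM molecules were measured, with a median of 0.13. EPB41 gave -0.26 (SE 0.11, limma adjusted p = 0.502) and EPB41L2 gave 0.27 (SE 0.13, adjusted p = 0.537), both of the EPB41 family and without overlap between groups. Of the other nectin-like and JAM-type adhesion molecules, 5 of 8 were measured, with a median of 0.09. All 5 overlapped between groups, among them JAM2 at -0.45 (limma adjusted p = 0.695), CLMP at 0.34 (adjusted p = 0.709) and CXADR, the coxsackievirus and adenovirus receptor, at 0.09 from signals of 4726.7 to 6009.3. Of the lymphocyte receptors that bind nectins and nectin-like molecules, TIGIT, CD226, CD96 and CRTAM did not pass the filter. PVRIG and KIR2DL5A did, at signals of 91.2 to 244.1, with limma adjusted p = 0.899 and 0.66, and the latter is an _x_at probeset that related genes may share.

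**Figure D5:**
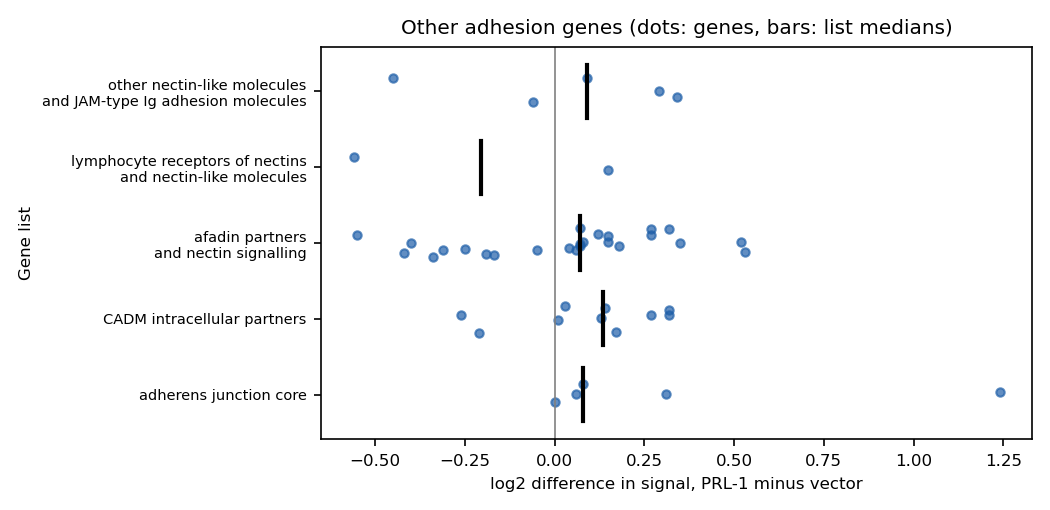
log2 difference in signal, PRL-1 minus vector, for the measured genes of the 5 adhesion lists (dots, brightest probeset each) with list medians (bars). All genes other than CDH1 lie between -0.56 and 0.53, and CDH1 of the adherens junction core stands apart at 1.24.

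The genes whose pattern over the 5 arrays lay nearest to that of NECTIN3 (213325_at) were KCNA6, CHRM3, ELAC2, LOC100506858 and PLIN2. Likeness was the root mean square difference of log2 signals after centring each probeset, and it was 0.24 to 0.27 for these genes and 0.94 for the other NECTIN3 probeset. All 5 had dim vector signals of 100.9 to 180.9 and PRL-1 signals of 16.3 to 38.5. Signals under 100 are not resolved, so the order of these genes, and their distance against that of the other NECTIN3 probeset, is only a description. With the PRL-1 signals set to 100, the bounds for these genes were 1.17-fold to 1.54-fold lower, against 3.68-fold for NECTIN3. None of the 5 was called (limma adjusted p from 0.204 to 0.33). They were picked for a pattern like that of NECTIN3 and passed the filter through the vector arrays alone. Their lower PRL-1 signals are therefore not a separate result.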

How the data were processed

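RNA from 3 HEK293-vector and 2 HEK293-PRL-1 cultures was hybridized to HG-U133 Plus 2.0 arrays, 1 per culture. The values deposited are MAS5 signals, 1 linear intensity for each probeset, which the authors computed in Bioconductor with default settings. Their trimmed mean was 500 on all 5 arrays. The authors' presence filter was not used here. The number of arrays limits the precision, and p-values reflect how cultures of each line varied.

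Of 54675 probesets, 62 controls were left out and 33818 passed the filter (signal of at least 100 on at least 2 arrays). Probesets were named through the platform annotation, updated by gene identifier to GRCh38.p14 (41091 with 1 symbol, 1801 with several, 11721 not listed). log2 signals were fitted with limma 3.58.1 in R 4.3.3 (eBayes with trend, group as the only term, two-sided, Benjamini-Hochberg over all tested probesets). The fit was tested on simulated data. The gene family, the lists, the neighbours and the alternatives were chosen with earlier results of these data known. Genes are named as all members, called context genes or otherwise up to 2 per list with the smallest adjusted p, the neighbours of NECTIN3, the 5 genes nearest in pattern, PTP4A1 and markers. SRC, CDH2, CTNNA1, CTNNB1, CXADR, TOMM40 and the second PARD3 probeset were chosen outside this rule, after their values were seen. Alternatives covered the filter, log offset, scaling, replicate block, trend, array weights, each array left out, and the methods' test.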

Additional observations from a re-analysis of the deposited data

How the results depend on the processing

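The number of probesets called over the whole array was 65, and it was 275 with array weights, 9 without the intensity trend and 448 with the replicate block. By the methods' test it was 0 at q 0.05 and 0 at q 0.10, where 2905 probesets had an unadjusted p under 0.05 (3287 with limma). That test was run over the 33818 probesets tested here and not over those that passed the authors' presence filter. With each array left out it ranged from 11 to 313, with 11 and 15 without PRL-1 replicates 1 and 2, 43, 27 and 313 without vector replicates 1, 2 and 3. Where 1 PRL-1 array was left, its spread was taken from the vector arrays. Probesets of the family that were called numbered 2, and 1 with the filter at 200, 1 without the trend and 0 by the methods' test at either q, and 0 to 2 with each array left out, where 0 was found without vector replicate 2. Without the trend and with the filter at 200 the call kept was that of 213325_at. Of 316 values of single family probesets under alternatives, 303 moved by less than the spread between replicates and 13 moved by more. The 303 include the values with a changed filter, without the trend and by the methods' test. These alternatives leave a log2 difference unchanged by construction. No called value changed sign, but the only called values were those of NECTIN3, on which the family was selected. Of the 23 tested probesets 9 had another sign under at least 1 alternative. With all 5 arrays these were AFDN 230622_at (0.16 with array weights, 0.08 after quantile normalization, 0.07 with the block, 0.02 after median centring), CADM4 229335_at (0.07, 0.03 and 0.23 under the first 3) and CADM1 209030_s_at (0.01 after median centring). Leaving out 1 array turned these 3 and also AFDN 214939_x_at, CADM1 232767_at, NECTIN2 203149_at, NECTIN4 223540_at, PVR 214443_at and PVR 32699_s_at. Of the context genes 0 were called, and 1 (CDH1) with array weights, after median centring and with the replicate block, and 0 to 1 with each array left out, CDH1 passing without vector replicate 3. Of 74 neighbouring genes 0 were called. At an unadjusted p under 0.05 there were 13 with limma, where 11.4% of all genes passed. By the methods' test there were 10, where 8.59% of all tested probesets passed. Called neighbours numbered 1 (C3orf52) with array weights and 2 (C3orf52 and NECTIN2, itself a neighbour of PVR) with the replicate block. They numbered 1 (C3orf52) without vector replicate 3 and 0 without vector replicate 1 or 2. The labels share replicate numbers but do not say whether same-numbered cultures were handled together. Deviations of same-numbered arrays correlated at 0.064 and -0.0588. These values cannot settle the question, since the deviations of 2 PRL-1 arrays from their mean mirror each other. The block also leaves vector replicate 3 without a partner. With the block 3 family probesets were called, the 2 of NECTIN3 and 225418_at of NECTIN2. Counting a gene as called by any of its tested probesets gave 0 for the context genes and 0 for the neighbours. The cause of these shifts was not tested. Signals under 100 limit what can be said of NECTIN4, CADM4 and the size of the NECTIN3 difference.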

Other observations

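PVR and NECTIN2, which lie near each other on chromosome 19, shared neighbours. CADM4 lies on the same chromosome but shared no measured neighbour with them. Of the 10 nearest measured genes of NECTIN2, 8 lay above 0 on the log2 scale, with a median of 0.20. In 3 the PRL-1 arrays were higher without overlap, where 13.8% of all genes were. TOMM40, a subunit of the protein import machinery of mitochondria, was among these 3 (0.41, limma adjusted p = 0.491). Of the 10 nearest of PVR, 8 lay above 0 with a median of 0.20, NECTIN2 being 1 of them. Neighbours of AFDN had a median of -0.24, with 7 of 10 below 0, and those of NECTIN4 a median of -0.13, with 8 of 10 below 0. Among those below 0, KIF25, FRMD1, AFDN-DT and LOC101929460 (AFDN) and ITLN1 and SLAMF1 (NECTIN4) fell under 100 on some arrays. The size of their differences is not resolved, while others, such as MPC1 and KLHDC9, were bright. Those of NECTIN1, CADM1 and CADM4 had medians of 0.03, -0.10 and 0.21. For comparison, 44.8% of all genes lay above 0, with a median of -0.03. None of the neighbouring genes was called.

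Markers of other cell types were mostly under 100 on at least 1 array. Of 5 lymphocyte markers on the array, 1 reached 100 on every array (CD3E, 168.7 to 266.7), and their summed signal was 521 to 810 on the vector and 507 to 658 on the PRL-1 arrays. Of 5 fibroblast markers 2 did (COL1A1 and DCN, both through _x_at probesets), with sums of 1451 to 1717 and 1204 to 1640. Of 5 endothelial markers 1 did (PECAM1), with sums of 554 to 843 and 451 to 520, and CDH5, the endothelial cadherin, gave 3.8 to 11.5. Their part in the results was not tested.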
